A study of Drosophila melanogaster with 4 samples.

Results

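Broad Myb-bound domains are stretches of the genome of 3 kb or more with a raised ratio of Myb immunoprecipitate over input. The ratio is an average over neighboring probes and is relative to the median probe of the array. They were found in a ChIP-chip experiment on wing imaginal discs, the larval tissue that forms the adult wing and part of the thorax. On the 6 arms (2L, 2R, 3L, 3R, X and 4), the log2 ratio of immunoprecipitate over input of each probe was replaced by the running mean of 9 probes. A domain is a run of probes whose running mean stayed above 0.3 in both biological replicates, with starts at most 300 bp apart, spanning at least 3000 bp. The rule gave 1607 broad domains among 27717 runs of any length. These domains were 5.80% of the runs and held 30.7% of the length of all runs. The domains were thus chosen by their log2 ratio in both replicates, and these ratios are given as a description, without a test.

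The discs came from male 3rd instar larvae of the yw67 genotype, a strain with yellow body and white eyes that served as the control for Myb mutants in the study. Discs of many larvae were pooled for each chromatin preparation, so a value is an average over all cells of the disc. There were 2 biological replicates of this single condition, each on 2 array designs with different probes, which makes 4 arrays. Design 1 carried 2L, 2R and 3L, and design 2 carried 3R, X and 4, so each probe was measured once per replicate (n = 2). Input was in the Cy3 channel and immunoprecipitate in the Cy5 channel on every array, without a dye swap. Tissue markers cannot be read from an array of DNA binding, and no array of a mock immunoprecipitate or a Myb mutant was analysed here.

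Myb is the fly member of a family of DNA-binding transcription factors that in vertebrates includes c-Myb, A-Myb and B-Myb. It works as a subunit of the Myb-MuvB or dREAM complex, which also holds E2F2, DP, the retinoblastoma-family proteins and the Mip proteins. The complex is known for activating genes of mitosis and for repressing other genes, and its subunits are also found at insulators, elements that separate chromatin domains. A transcription factor bound at a single site typically gives a peak about as wide as the sonicated fragments. Other runs above the same threshold had a median length of 248 bp below 1000 bp and of 1568 bp from 1000 to under 3000 bp. The domains described here were longer by the rule, which sets these classes by length.

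The number and size of the domains were as follows. They covered 7.39 Mb, or 6.14% of the 120.4 Mb tiled on the arms, and contained 98074 of 1563891 arm probes measured in both replicates (6.27%). The median length was 4068 bp, with quartiles of 3416 and 5151 bp, and the longest was 18489 bp. Of the 1607 domains, 775 were shorter than 4000 bp, 392 were from 4000 to under 5000 bp, 337 from 5000 to under 7500 bp, 73 from 7500 to under 10000 bp, and 30 were 10000 bp or longer. A domain held a median of 54 probes. The length classes formed a continuous tail with no gap at the 3000 bp limit. The 3 shortest domains spanned 3000 bp on X (X:13123144-13126143), 3007 bp on 3R (3R:14989356-14992362) and 3011 bp on 3R (3R:1613050-1616060), with mean log2 ratios of 0.76, 1.18 and 0.87. The 3 longest runs that missed the limit lay on 2R (2R:19757027-19760025), 3L and X, the last 2 of them 2996 bp long, with means of 0.97, 0.84 and 1.04.

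The level of a domain was moderate and differed between the replicates. The mean log2 ratio over a domain had a median of 0.81 in replicate 1 (0.47 to 1.40 over all domains) and of 0.97 in replicate 2 (0.43 to 1.87). These medians correspond to 1.75-fold and 1.96-fold more immunoprecipitate than input, relative to the median probe of the array. The SD between the 2 replicates of a domain had a median of 0.13 and reached 0.71. Replicate 2 was the higher in 1255 domains (78.1%), and across the 1607 domains the correlation of the replicate means was 0.23 (Pearson's r) or 0.22 (Spearman's rho), which describes domains of shared arrays and not independent samples. The rank by level was therefore poorly shared by the replicates among these domains. They had all passed the rule in both replicates, which narrows the range of levels and can lower the correlation. Length and level were nearly unrelated (rho of 0.14 across domains). Within a domain the 2 replicates had a median r of 0.57 across its probes, a value over probes that is not comparable with the one over domains. A median of 89.5% of the probes of a domain were above 0 in both. The rule itself favors a high share, and the share over all arm probes was not worked out. Of the domain probes, 57463 (58.6%) were enriched in limma with Benjamini-Hochberg adjustment at a threshold of 0.05, against a background of 9.77% of all probes tested. This comparison uses the contrast that chose the domains, so nothing is read from it.

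**Figure D1:**
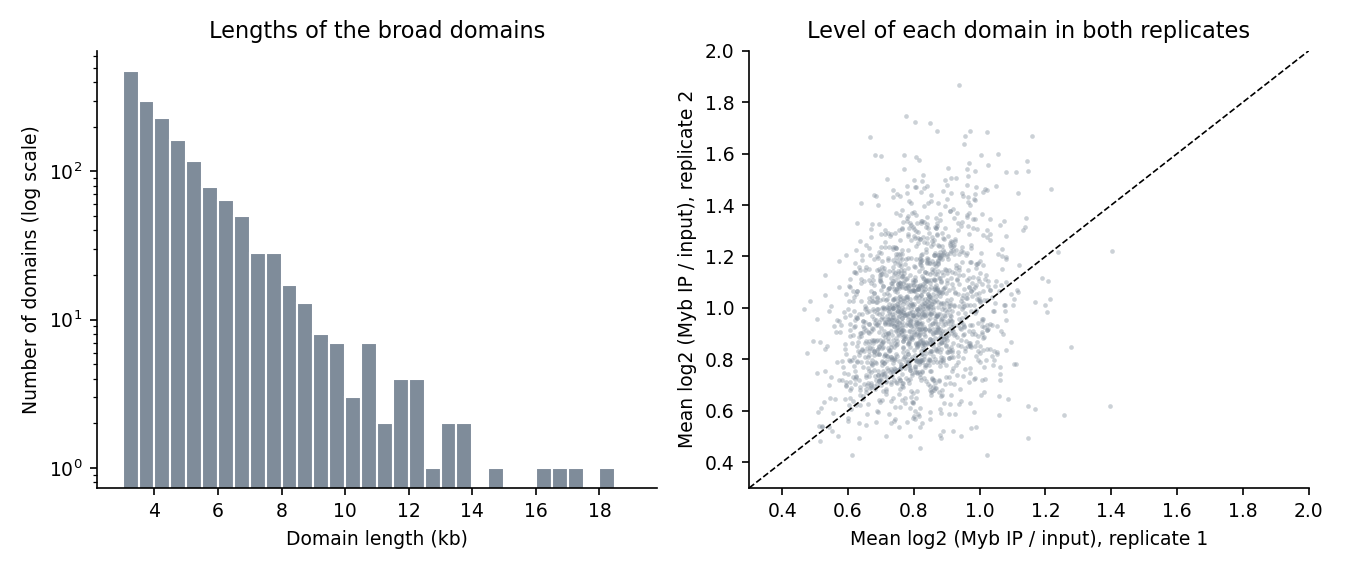
The left panel plots the number of broad domains (log axis) against length in kb, in bins of 0.5 kb. The right panel plots each of the 1607 domains as a point, with its mean log2 ratio in replicate 1 on the x axis and in replicate 2 on the y axis. The dashed line marks equal values, and 1255 domains lie above it.

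Runs called in 1 replicate allow the other replicate to be read without having chosen them. The same rule applied to replicate 1 alone gave 2496 domains. In replicate 2, which had not been used, their mean log2 ratio had a median of 0.80 with quartiles of 0.58 and 0.99, and 2358 of them (94.5%) were above 0.3. For comparison, the arms were cut into 28957 consecutive windows of 54 probes, the median number in a domain, and 33.3% of these had a mean above 0.3 in replicate 2. Applied to replicate 2 alone, the rule gave 3477 domains. In replicate 1 these had a median of 0.57 with quartiles of 0.42 and 0.71, and 3041 (87.5%) were above 0.3, against 26.9% of the windows. The windows were not matched to the low input signal of the domains. A broad stretch found in 1 replicate was thus raised in the other in most cases. Of the domains of replicate 1, 78.1% overlapped a domain of replicate 2, and 53.1% of those of replicate 2 overlapped a domain of replicate 1. Any shared base counted as overlap. The domains of replicate 2 alone covered 19.7 Mb and those of replicate 1 alone 12.2 Mb of the 120.4 Mb tiled. The overlap that unrelated stretches of these lengths would reach was not worked out. Replicate 1 was the more restrictive, and of the 3214 ends of the 1607 domains, 2038 lay where replicate 1 alone fell to 0.3 or below and 1001 where replicate 2 alone did. Both fell at 166 ends, and a gap in the tiling set 9.

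The 2 channels behind the ratio bear on all of these values. Inside the domains the input signal was low, while the immunoprecipitate signal was not high. Relative to the median of all arm probes, the mean log2 input signal of a domain had a median of -0.99 in replicate 1 and -1.17 in replicate 2, and it was below the arm median in both replicates in 1508 domains (93.8%). The log2 immunoprecipitate signal of a domain had a median of -0.31 in replicate 1 and -0.33 in replicate 2. It was above the arm median in both replicates in 436 domains (27.1%) and below it in both in 1096 (68.2%). A broad domain was thus mostly a stretch of probes that were dim in both channels and dimmer in input. Runs of 1000 to under 3000 bp had the same character, with median input of -0.88 and -1.02 and median immunoprecipitate of -0.30 and -0.33. Across all arm probes the channels followed each other (r of 0.94 in replicate 1 and 0.95 in replicate 2), and dim probes had higher ratios. In the tenth of arm probes with the lowest input signal, the median log2 ratio was 0.22 in replicate 1 and 0.51 in replicate 2, and 11.4% and 12.6% of these probes lay in a broad domain. In the tenth with the highest input signal, the median was -0.30 and -0.17, and 2.09% and 1.86% lay in one.

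The domains were called again after the median ratio of probes of like brightness in both channels was subtracted within each array, an alternative added after the data were seen. This gave 1365 domains, and 1256 of the 1607 domains (78.2%) overlapped one of them. Subtracting the median ratio of probes of like input signal gave 1019 domains, which overlapped 890 of the 1607 (55.4%). Any overlap of a domain counted here, however short, and the share that unrelated stretches would reach was not worked out. The covered length went from 7.39 Mb to 6.10 Mb at like brightness and to 4.43 Mb at like input signal. Base composition and shared sequence of the probes, which can set how brightly a probe hybridizes, were not analysed here, and their part in the domains was not tested.

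The log2 ratio reached the level of the interior within 500 bp of the edges. In the 100 bp from 1000 to 900 bp outside an edge, the mean log2 ratio was 0.43 in replicate 1 and 0.59 in replicate 2. At 400 to 500 bp inside it was 0.88 and 1.00, and at 1400 to 1500 bp inside it was 0.86 and 1.03. Just outside the edge there was a narrow dip, to 0.03 and 0.29 at 300 to 400 bp. Both the rise and the dip follow from the rule, which sets an edge where the running mean crosses the threshold. The replicate that had not chosen a run showed a smaller step. At the edges of runs called in replicate 1 alone, replicate 2 went from 0.47 at 200 to 100 bp outside to 0.77 at 400 to 500 bp inside, while replicate 1, which set these edges, went from 0.18 to 0.84. At the edges of runs called in replicate 2 alone, replicate 1 went from 0.25 to 0.54, while replicate 2 went from 0.17 to 0.85. Across the edges of the 1607 domains, the input signal went from -0.64 in replicate 1 and -0.75 in replicate 2 at 1000 to 750 bp outside to -0.95 and -1.11 at 500 to 750 bp inside. The immunoprecipitate signal went from -0.33 and -0.32 to -0.23 and -0.26 over the same distance, so the larger part of the difference was lower input signal.

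**Figure D2:**
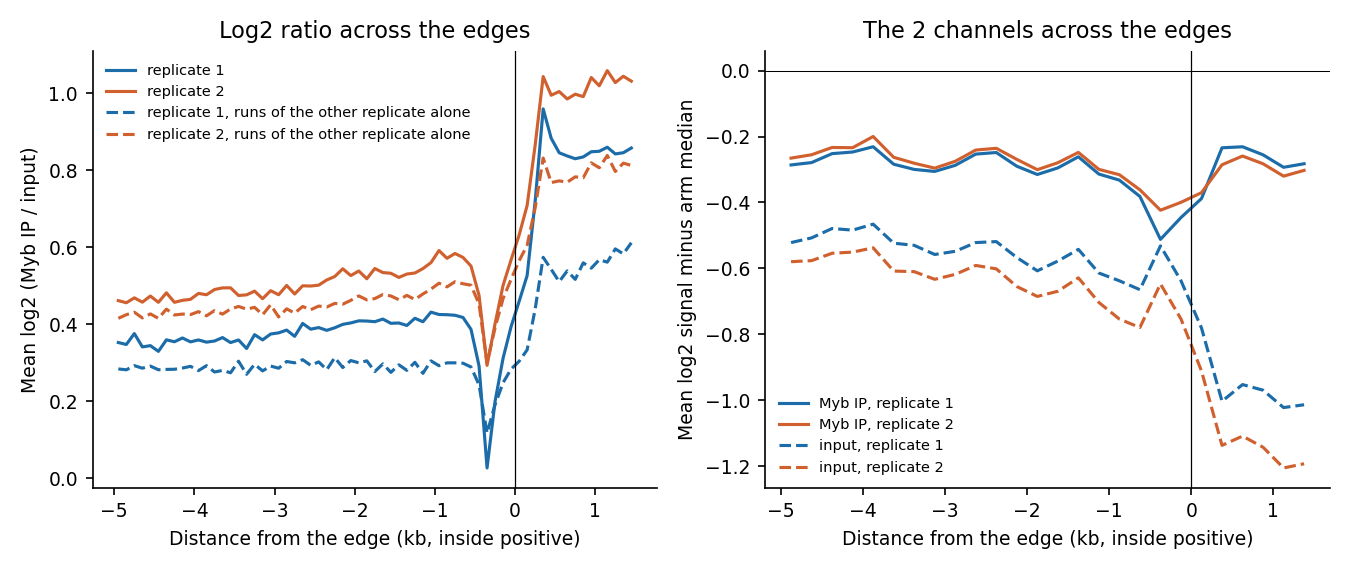
Both panels plot means over the 3214 edges of the broad domains against distance from the edge in kb, with positive values inside. The left panel shows the log2 ratio in each replicate (solid) and, dashed, the log2 ratio of a replicate at runs of 3000 bp or more called in the other replicate alone. The right panel shows the log2 signal of immunoprecipitate (solid) and input (dashed) relative to the median of the arm probes, with input at -0.95 and -1.11 at 500 to 750 bp inside the edges.

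Summits show how a domain was built. A summit was a maximum of the running mean of both replicates that stood out from its surroundings by at least 0.5 on the log2 scale. Of the 1607 domains, 1016 (63.2%) had 1 summit, 456 had 2, 89 had 3, 23 had 4, 8 had 5 or more and 15 had none. At this prominence, the 1016 domains with 1 summit were broad peaks, while the 576 with 2 or more (35.8%) were chains of peaks. That the running mean did not return to the threshold between them is given by the rule. Longer domains had more summits (rho of 0.42 across domains), with a median of 1 in domains under 5000 bp, 2 from 5000 to under 10000 bp and 4 in those of 10000 bp or longer. Where there were several, neighboring summits lay a median of 2105 bp apart. The count depends strongly on the prominence, and 1310 domains had 2 or more summits at 0.25 but only 32 at 1. The highest point of a domain had a median running mean of 1.38, against 0.99 in runs of 1000 to under 3000 bp. A maximum over more probes tends to be higher by construction, and the medians were 54 and 21 probes. With the distance from the nearer edge to the middle cut into 3 equal zones, the highest point lay in the outermost zone in 323 domains, in the next in 652 and in the innermost in 632. A median of 57.1% of a domain's length was above the level midway between the threshold and its highest point, and this share fell from 59.9% in domains under 4000 bp to 49.7% in those of 10000 bp or longer.

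The longest domain was on 3R (dm3, 3R:4870433-4888921). It spanned 18489 bp and 257 probes, with mean ratios of 0.84 in replicate 1 and 1.05 in replicate 2 on the log2 scale (0.95 ± 0.15, SD, n = 2) and 5 summits. It covered 84.8% of Rel (3R:4869946-4873157), which encodes the NF-kB protein Relish of the antibacterial immune response. Peaks inside it carry the names Kdm2, a histone demethylase, Nmdmc, a mitochondrial enzyme of folate metabolism, and Mst85C, besides Rel, in the study's peak list. The second longest was also on 3R (3R:21072285-21089423) with 17139 bp, 5 summits, 0.85 in replicate 1 and 1.01 in replicate 2, and the peak name CG11857. Replicate 2 was the higher in both of them.

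The fourth longest had the most summits and the most even spacing. It lay on X (X:11480066-11496312) over 16247 bp, with 0.81 in replicate 1 and 1.07 in replicate 2. Its 7 summits lay 2116 ± 198 bp apart (SD over 6 distances), a coefficient of variation of 9.38%. Among the 31 domains with 4 or more summits, the next lowest coefficient was 15.2%, in the longest domain on 3R, and the median was 30.9%. In replicate 1 the running mean was 1.02 on average at the summits and 0.54 at the lowest point between them, and in replicate 2 it was 1.79 and 0.56. Summits were picked on the mean of both replicates, so a summit above its surroundings is given by the choice. Across the probes of this domain the replicates had an r of 0.44, lower than the median domain's 0.57. A peak in this domain carries the name rho-4, a rhomboid protease gene. In the Release 6 gene order, which was used for names and order only, rho-4 is preceded by 7 pseudogenes in a row, CR43217 to CR43211. The pseudogenes were not placed on the dm3 assembly, and whether probes under the 7 summits share their sequence was not analysed here.

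A further long domain lay on 2L. There, a domain of 14944 bp (2L:418542-433485) had 0.87 in replicate 1 and 1.29 in replicate 2 with 5 summits. It holds a peak named for ex (expanded), an upstream component of the Hippo growth-control pathway. On X, a domain of 13416 bp (X:2027712-2041127) had 0.87 and 1.33 with 4 summits and covered the whole of D2hgdh (X:2037090-2038893), a metabolic enzyme gene. Its peaks are named for Pgd, an enzyme of the pentose phosphate pathway, and ph-p, a subunit of Polycomb repressive complex 1. Replicate 2 was clearly the higher at ex and at ph-p, with SDs of 0.29 and 0.33.

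A domain on 2L (2L:11989756-12003362) was among both the 10 longest and the 10 highest. It spanned 13607 bp, with 1.14 in replicate 1, 1.35 in replicate 2 and 4 summits. It covered the whole of Nfs1 (2L:11999725-12001171), a cysteine desulfurase that supplies iron-sulfur clusters, and Qtzl (2L:11995814-11996243), and 37.3% of zuc, a nuclease that makes piRNAs. The other 4 of the 10 longest were on X (X:6655199-6671800, 16602 bp, with 0.76 and 0.92), 2R (2R:19245055-19258628, 13574 bp, with 0.83 and 0.91), 3L (3L:15954922-15968124, 13203 bp, with 0.83 and 0.75) and 2R (2R:17571361-17584008, 12648 bp, with 0.70 and 0.84). Of these, only the domain on 3L was lower in replicate 2. No gene was placed in any of the 4 here. The longest on arm 4 had 7001 bp (4:521159-528159), 0.96 in replicate 1, 1.21 in replicate 2, 2 summits and a peak named for zfh2, a homeodomain transcription factor gene.

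**Figure D3:**
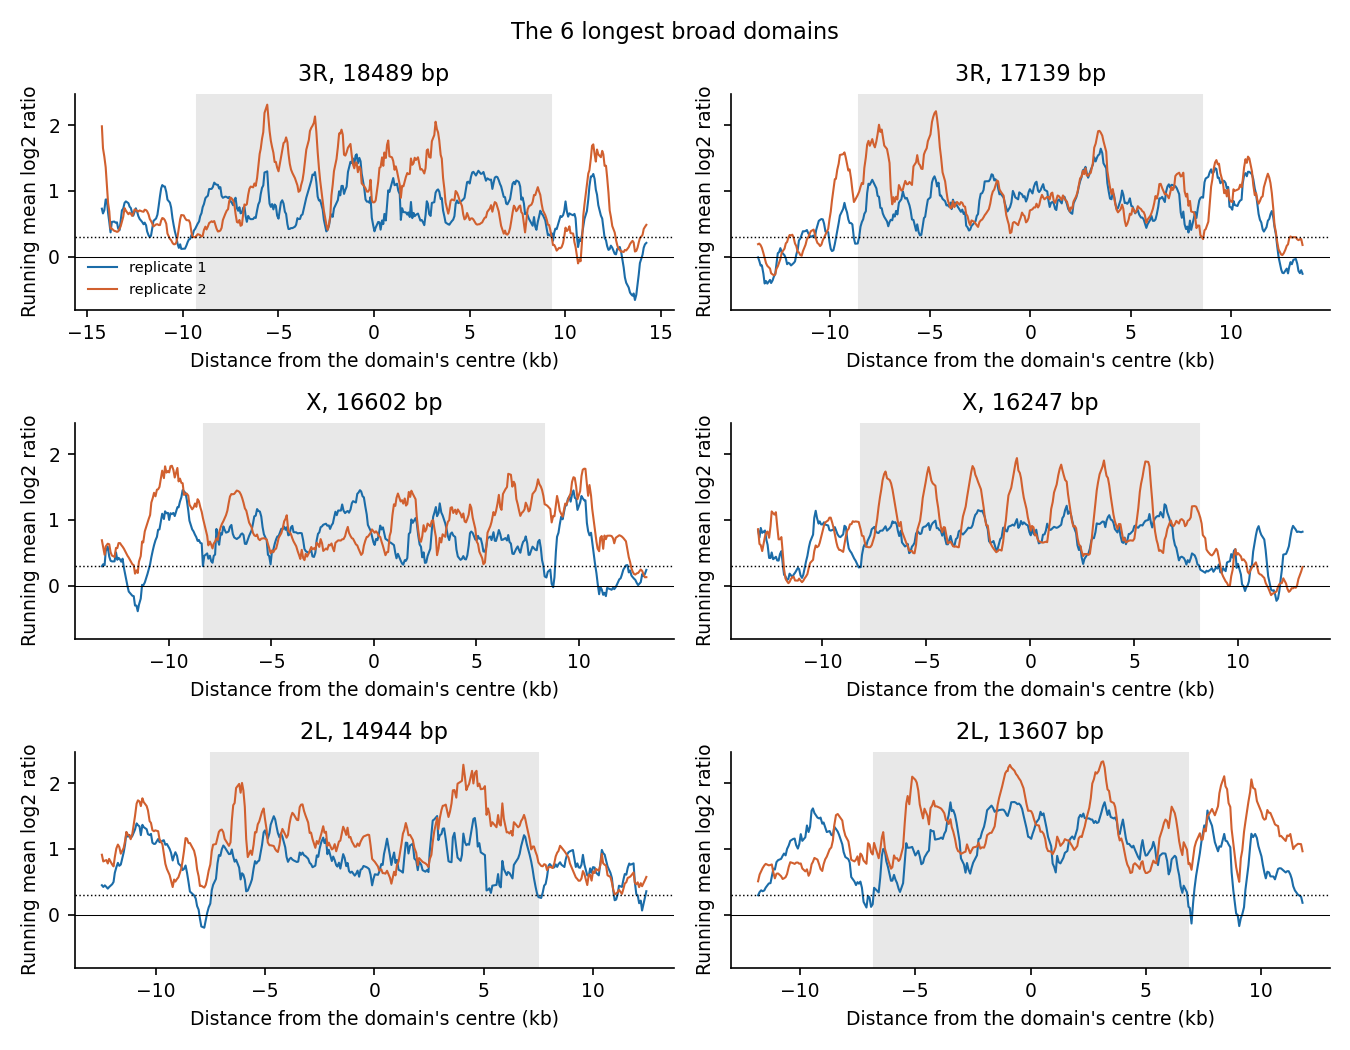
Running means of 9 probes are plotted against distance from the domain's centre in kb for the 6 longest domains, in replicate 1 (blue) and replicate 2 (orange). Gray marks the domain and the dotted line the threshold of 0.3. The panel of the 16247 bp domain on X shows 7 evenly spaced summits, 2116 ± 198 bp apart.

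The 10 domains with the highest level, ranked by the lower of the replicate means, were mostly short. Apart from the domain at zuc, they spanned 3342 to 6465 bp, and 5 lay on 3R or 3L and 4 on X. The highest by this measure was on 3R (3R:20542945-20546425), with 1.40 in replicate 1 and 1.22 in replicate 2, peaks named for tok, a secreted metalloprotease, and Rpb10, a subunit of RNA Pol II, and 87.1% of its length above the midway level. The next, on X (X:6169112-6175576), had 1.24 and 1.22 and a peak named for Ubi-p5E, a ubiquitin gene. On 3L (3L:18225743-18229122) the values were 1.22 and 1.46, and on 3R (3R:7603757-7607098) 1.16 and 1.67. Domains with 1.15 and 1.53 (3R:16081640-16085519), 1.13 and 1.30 (X:6904788-6908329) and 1.14 and 1.31 (X:11463318-11468123) had no placed gene. A domain on X (X:8300126-8303912) with 1.14 and 1.57 covered 41.6% of PIG-T, a gene of GPI-anchor attachment, and has a peak named for Trf2, a TBP-related factor. The tenth (3R:17858313-17862319) had 1.12 and 1.17 and covered the whole of Fadd (3R:17860285-17861004), an adaptor of the IMD immune pathway. In these 10 domains the input signal was below the arm median in both replicates in all 10, and the immunoprecipitate was above it in both in 2. In the 10 longest domains, input was below in all 10 and immunoprecipitate was above in both replicates in 5.

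Genes of the Myb complex itself lay in broad domains. The positions of genes on the dm3 assembly were taken from a list of 1999 transcripts of the study, which is ordered by its comparison of Myb mutant with control discs and so is not a random sample of genes. On the 6 arms it places 1753 genes. Of these, 357 (20.4%) overlapped a broad domain and 145 (8.27%) lay wholly inside one. Gene ends were in broad domains in 14.2% of cases, while the domains covered 6.14% of the tiled length. Runs of 1000 to under 3000 bp held 17.3% of gene ends in 8.23% of the length, so such an excess was not particular to broad domains. Of the 12 listed genes of the complex, 3 were placed and all 3 overlapped a broad domain. The domain at Myb (X:15749261-15756110) spanned 6850 bp with 3 summits and 92.1% of the gene, with 0.93 in replicate 1 and 1.11 in replicate 2 (1.02 ± 0.13, SD, n = 2). The domain at mip130, a subunit of the MuvB core, was 5464 bp long (X:1799075-1804538), with 1.05 and 0.83, and it covered 18.6% of the gene. At E2f2, which encodes the repressive E2F protein of the complex, the domain was 6980 bp long (2L:21153731-21160710), with 0.77 and 0.98, and contained the whole gene. The mean of both replicates at Myb was above the upper quartile of all broad domains (0.98), while those at mip130 (0.94) and E2f2 (0.87) were near their median (0.89). Input was below the arm median at each, from -1.11 to -2.05. The immunoprecipitate was below it too, with -0.97 in replicate 1 and -1.08 in replicate 2 at Myb, -0.29 and -0.42 at mip130, and -0.47 and -0.53 at E2f2.

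Genes of mitosis were the list with the most members in broad domains. Of 33 mitosis genes in the list, 12 were placed, and 8 (66.7%) overlapped a broad domain, against the 20.4% of all placed genes. This difference was not tested, because both the list and the placed genes were selected. The domain at aurA, the Aurora A kinase of the spindle poles, spanned 6196 bp (3R:7783882-7790077), with 1.07 in replicate 1 and 1.01 in replicate 2. The gene asl, which encodes a centriole protein, lay across the gap between a pair of domains of 6072 and 4604 bp, with 0.96 and 1.35 in the first and 0.91 and 0.94 in the second. At sti, the citron kinase of cytokinesis, the domain of 5330 bp had 0.83 and 0.85, and at ncd, a minus-end-directed kinesin, the domain of 4041 bp had 0.98 and 0.72. The domain at CycB (2R:18691059-18694869), the mitotic cyclin, was 3811 bp long with 0.84 and 1.06 and contained the whole gene. The other 3 were fzy, Mps1 and Ndc80, which were named after their values were seen, in domains of 3086, 3154 and 3115 bp. Replicates differed most at the first asl domain and at Ndc80, with SDs of 0.28 each. In all domains at these mitosis genes, input was below the arm median in both replicates. The immunoprecipitate was above it in both only at fzy (0.10 in replicate 1 and 0.06 in replicate 2). It was mixed at aurA (0.15 and -0.10) and below the arm median in both at the others, such as CycB (-0.71 and -0.72).

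Of 20 DNA replication and S-phase genes in the list, 13 were placed, and 4 of these (30.8%, against 20.4% of all placed genes) overlapped a broad domain. They were dup, the Cdt1 licensing factor, in 5400 bp with 0.87 in replicate 1 and 0.91 in replicate 2, and PCNA, the sliding clamp, in 4492 bp with 0.70 and 1.16. The others were dap, a cyclin-dependent kinase inhibitor, in 4215 bp with 1.01 and 1.06, and Mcm5, of the replicative helicase, in 3171 bp with 1.10 and 1.06. Only PCNA differed between replicates by more than 0.1. Input was below the arm median at each. The immunoprecipitate was above it in both replicates at dup (0.26 and 0.25) and below it in both at PCNA, dap and Mcm5. The heat shock genes Hsp23 and Hsp67Ba shared a domain of 8248 bp on 3L (3L:9370461-9378708) with 4 summits, with 0.87 in replicate 1 and 1.17 in replicate 2, and Hsp22 lay in a neighboring domain of 4143 bp with 0.63 and 0.96. Of the 17 listed heat shock genes, 4 were placed, and the other placed gene overlapped none. Of the 12 listed insulator protein genes, 3 were placed and 1 overlapped, namely mod(mdg4), with a pair of domains of 4089 and 3558 bp inside its length of 18660 bp. In the domains at the heat shock genes and at mod(mdg4), both channels were below the arm median in both replicates. In lists of genes with other roles, the receptors of smell and taste had 1 of 6 placed members in a domain (Gr61a) and the eye, fat body and egg genes 1 of 7, Lsp1gamma, of which a domain covered 2.06%. None of 3 placed wing patterning genes, and none of the single placed members of the Polycomb group, the Hox clusters and the ribosomal proteins, overlapped one, and no gene of the Hippo, housekeeping or tRNA lists was placed by a transcript. Peak names give further members of these lists in broad domains. They are 6 of 52 listed wing patterning genes (Dad, N, arm, emc, sd and ush) and, of 17 listed Polycomb group genes, ph-p. Of 18 listed Hippo pathway genes they are ex and kibra, and of 21 housekeeping genes they are 4 (Act5C, Moe, betaTub56D and chic). Among the lists above, they add Dp of the complex, Trl and pita of the insulator proteins, scra and stg of mitosis, and CycE of S phase. Peak names say only that the study assigned a peak in the domain to the gene, and these counts are small. The share of all peak names that lie in broad domains was not worked out, so nothing about these lists is read from the counts.

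**Figure D4:**
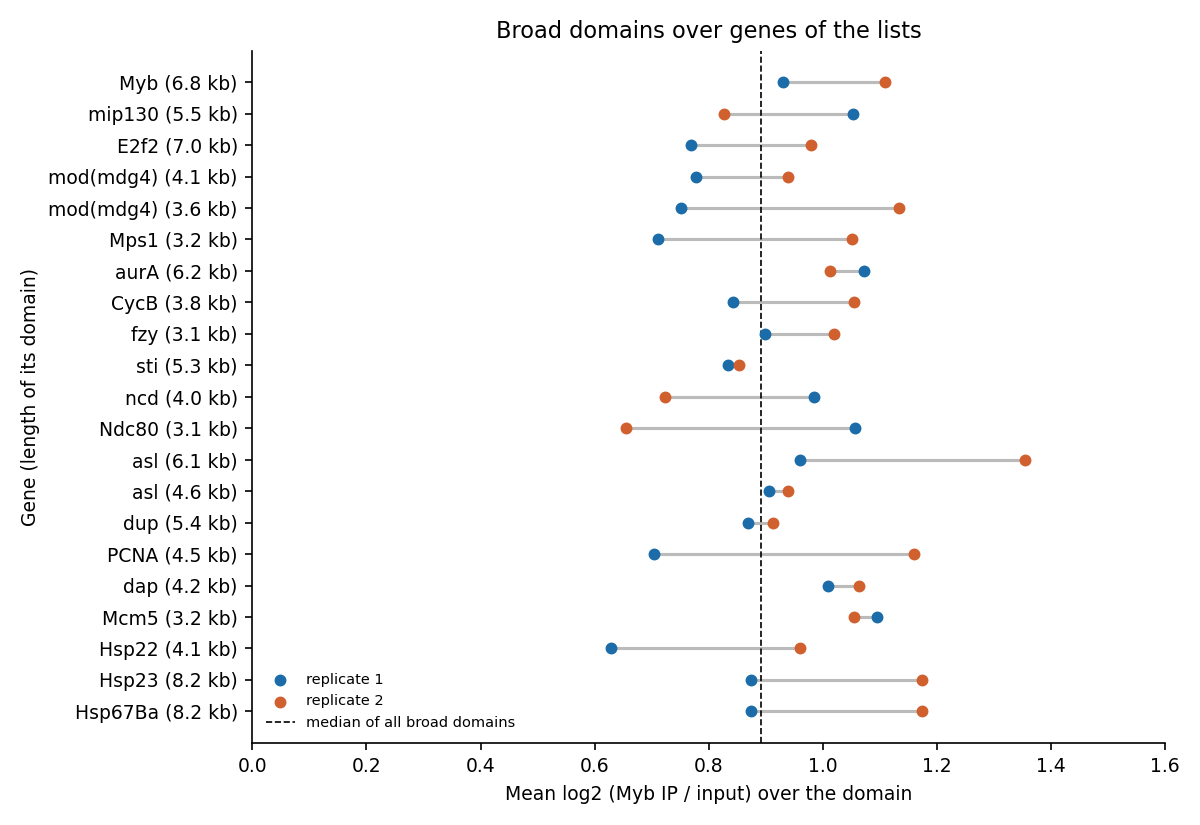
The mean log2 ratio over the broad domain at each listed gene is plotted for replicate 1 (blue) and replicate 2 (orange), with the domain's length in kb beside the gene's name. The dashed line is the median over all 1607 domains, 0.89. A gene with a pair of domains has a row for each, and the domain shared by Hsp23 and Hsp67Ba appears under both.

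Most domains with a placed gene had 1 gene, while 43 held 2 or more and 6 held 3. Those 6 were named after their values were seen. Besides the domains at zuc and Myb, they were the domains at CG30383, phr and CG12822 on 2R (8450 bp, with 0.82 in replicate 1 and 1.05 in replicate 2), at CG4199, CG4194 and Rtca on X (5493 bp, 1.00 and 1.06), at CG7246, CG32706 and CG6999 on X (11750 bp, 0.94 and 0.93) and at Gss1, CR32496 and Gss2 on X (4956 bp, 0.69 and 0.82). The Myb domain contained all of AlkB and reached Gbeta13F. Genes that overlapped a broad domain had a median extent of 1727 bp, against 2057 bp for the others placed. Within the 306 domains that contained a gene end, the highest point lay a median of 678 bp from the nearest end and the domain's midpoint 805 bp, and the highest point was the nearer in 146. The log2 ratio within 250 bp of a gene end had a median of 0.82 in replicate 1 and 1.03 in replicate 2, and outside placed genes it had 0.82 and 1.02. Inside genes, away from their ends, it was 0.81 and 0.82. The median level was thus alike at these places in replicate 1, and lower inside genes in replicate 2. Near gene ends it was measured in 306 domains, outside placed genes in 294 and inside genes in 254, so the sets of domains differ. Genes that were not placed here also lie in these domains, and their ends are not part of these values.

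Domains lay on all arms, and each of the 117 whole windows of 1 Mb on the 5 large arms held at least 1. The density was 17.5 per Mb on 2R (369 domains), 14.5 on 3R (404), 13.0 on 3L (320), 11.9 on 2L (273), 10.3 on X (232) and 6.66 on 4 (9). On X, which males carry in a single copy, the density was 0.73 times that of 2L, 2R, 3L and 3R together. The arms lie on different array designs, and the median log2 ratio of all probes of an arm went from -0.14 on 4 to 0.09 on 2R in replicate 1 and from -0.04 on 2L to 0.14 on X in replicate 2. On design 2 alone, which carried both 3R and X, the median input signal of X was 0.38 below that of 3R on the log2 scale in each replicate. The ratio of X to the autosomes was below 1 in every alternative except replicate 2 alone, where it was 1.07. It was 0.92 in replicate 1 alone and 0.99 with the mean of both replicates, so the value of 0.73 holds for the rule that requires both. The order of X and the autosomes is therefore not settled. The levels of domains were alike on the 5 large arms, with medians between 0.87 and 0.94.

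Along the arms the domains were uneven. The windows with the most domains were 2R:20000001-21000000 with 31 and the first Mb of 2L and of 3L with 30 each. In the first twentieth of 2L and of 3L the density was 27.8 and 26.1 per Mb, whereas the last twentieth of 3L, near the centromere, had 0.815 per Mb. On 2R, which is numbered from its centromere, the first twentieth had 3.78 per Mb, and on X the last had 2.68. On 3R, also numbered from its centromere, the first twentieth had 13.6 per Mb and the last 19.4. Density was thus lower near the centromere than near the other end on the 5 large arms, least so on 3R. The longest stretch between domains was 887 kb on 2L (2L:8544545-9431093), beside 1085 kb at the end of 3L that follows its last domain. Neighboring domains lay a median of 23970 bp apart, and 143 of 1601 neighboring pairs (8.93%) were within 1000 bp and 367 (22.9%) within 5000 bp. The pair of domains at asl (3R:1423275-1429346 and 3R:1429489-1434092) is an example of such close neighbors.

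**Figure D5:**
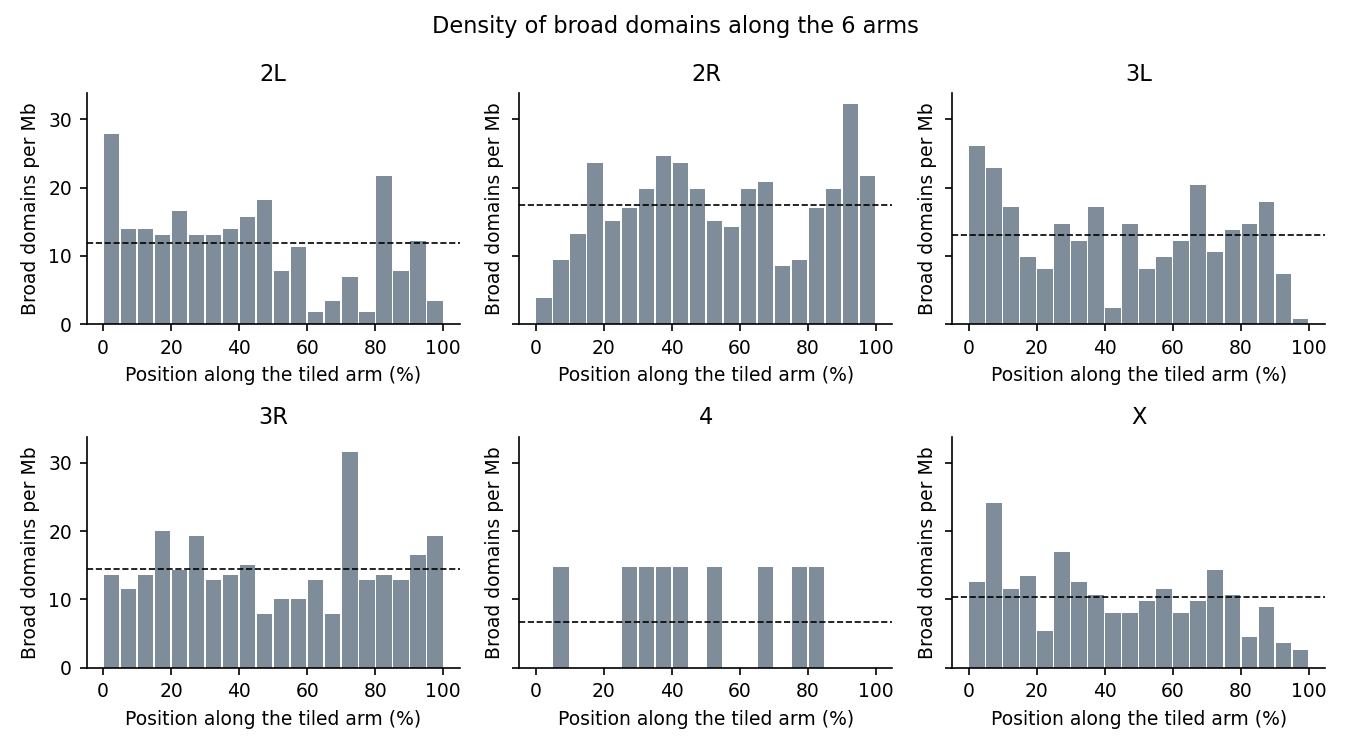
Broad domains per Mb are plotted in bins of 5% of the tiled length of each arm, from the first to the last tiled position. Dashed lines mark the mean density of the arm, from 6.66 per Mb on 4 to 17.5 on 2R. The tallest bin is on 2R, and a bin on arm 4 holds at most 1 domain.

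Depleted stretches of the same length were fewer. The mirrored rule, with running means below -0.3 in both replicates, gave 389 runs of 3000 bp or more covering 1.71 Mb, the longest of 13557 bp. Of all probes tested, 3.86% were depleted in limma at the same threshold. This count is a description of the low side of the same arrays, and its height depends on where the ratio is centred.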

How the data were processed

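The authors deposited scanner output with processed intensities per channel that, per the file headers, Agilent Feature Extraction version 11.5.1.1 had background-subtracted and dye-normalized. The deposited log10 ratios were used to check the ratios computed here. A table of log2 values that the authors deposited, 1 column per replicate, served, once centred, as an alternative. The paper's methods give median normalization after blank subtraction, and it is not stated whether the table holds those values. Columns of this table were matched to replicates by name.

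The log2 of processed Cy5 over Cy3 intensity was taken per spot. Arrays were centred on the median of their genome probes after removal of outlier spots, without loess or quantile normalization. The software was Python 3.11.15 (numpy 2.4.6, pandas 2.3.3, scipy 1.17.1), in which runs were called. The caller and the probe test were tested on simulated data. Probes were tested against 0 with limma version 3.58.1 (R version 4.3.3), two-sided, with Benjamini-Hochberg adjustment over 1865871 probes. The array number limits the precision, as each probe has 1 value per replicate, and processed medians were 799.8 to 1308 per array and channel.

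Positions are dm3 positions from the probe names. Genes were placed by 1999 transcript positions of the study's expression table and by gene names in 1400 entries of its peak table, 1170 of them with a name. These entries are only part of the study's peaks, so a domain without a placed gene can still hold one. Only positions and names were used. Of the 1999 transcripts, 1984 matched a Release 6 gene. The domains named are the 10 longest, the 10 highest by the lower replicate mean, the longest of each arm, and the 3 just over and 3 just under the length limit. Genes named are those placed in named domains and, per list, up to 5 in the longest domains. The members and lists were chosen with earlier results of these data known. Alternatives varied the threshold, window, gap, centring, background correction, table, spots and replicates. Sequences of probes and promoters were not analysed here.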

Additional observations from a re-analysis of the deposited data

Results flagged for a closer look

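Off the 6 arms, which the comparisons above do not use, the same rule found 17 domains of 3000 bp or more among 301980 probes. They lay on 2RHet (6), 3LHet (7), U (2), Uextra (1) and the mitochondrial genome (1). The 13 on 2RHet and 3LHet had mean log2 ratios of 0.75 to 1.07 in replicate 1 and 0.43 to 0.59 in replicate 2, so replicate 1 was the higher in all of them, unlike on the arms. The mitochondrial domain spanned 14273 bp, with 1.01 in replicate 1 and 1.79 in replicate 2. The pair on U had 0.98 and 1.09 in replicate 1 and 1.74 and 1.96 in replicate 2, close to the mitochondrial values.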

How the results depend on the processing

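The number of domains rests on the threshold, the window and the centring. It was 2463 at a threshold of 0.2 and 476 at 0.5. It was 664 with a running mean of 5 probes, 2767 with arrays centred on the mode, 990 with normexp on the median signals, 3217 with the mean of both replicates in place of each, and 1019 relative to probes of like input signal. In 1 replicate alone it was 2496 to 3477. The covered length, 7.39 Mb, became 12.4 Mb at a threshold of 0.2 and 1.89 Mb at 0.5, 2.67 Mb with 5 probes, 4.25 Mb with normexp, 4.43 Mb at like input signal, 12.9 Mb with 15 probes, 14.3 Mb with the mode, 18.0 Mb with the mean of both replicates, and 12.2 to 19.7 Mb in 1 replicate alone. The median length became 3634 bp at 0.5, 3707 bp with 5 probes, 4542 bp with 15 probes, 4666 bp with the mean of both replicates, and 4211 to 4679 bp in 1 replicate. The ratio of X to the autosomes, 0.73, became 0.58 at 0.5, 0.59 with 5 probes, 0.90 with 15 probes, 0.96 with the mode, 0.47 with normexp, 0.99 with the mean of both replicates, 0.92 to 1.07 in 1 replicate, 0.57 with centring on the arm probes, 0.58 at like brightness and 0.46 at like input signal. The last 3 alternatives were chosen after the data were seen. Domains with 2 or more summits numbered 1310 at a prominence of 0.25 and 32 at 1. Fewer or more probes per mean and a changed zero move these values by construction. For the covered length, so does a changed threshold, or a rule on 1 replicate or on the mean of both. A changed prominence moves the number of summits by construction. The cause was not tested for the others. Levels of the named domains are treated in the next paragraph. All other remaining values moved by less than the SD between replicate 1 alone and replicate 2 alone or, for counts, by less than 1.5 times.

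Of the 23 domains named, between 16 and 23 were overlapped by a domain under each alternative. All 23 kept a mean log2 ratio above 0, with values between 0.65 and 1.56 under the 8 alternatives that change the ratios. Among these results for named domains, 52 moved and 150 did not. Those that moved were mean log2 ratios, which shifted by at least the SD between the domain's replicates. No paired analysis was possible because the arrays are of a single group. With 2 replicates and no mock immunoprecipitate analysed, the limits of a domain are no more exact than the difference between replicate 1 and replicate 2.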
